A study of Mus musculus with 4 samples.

Results

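The cytosolic ribosomal protein genes were followed across the luminal cells of the pubertal mouse mammary gland. A gene was taken as a member when its symbol was Rpl or Rps followed by a digit, or was Rpsa, Rplp0, Rplp1 or Rplp2. Symbols holding -ps, which name pseudogenes, and the Rps6k kinases were dropped. This gave 92 members of 52636 genes in the table, of which 31 encode the small ribosomal subunit, 43 the large subunit and 3 the stalk of the large subunit. The other 15 were paralogues, retrocopies and 1 gene that encodes no ribosomal protein, Rps19bp1. The WT pool came from ErbB3+/+;MMTV-Cre mice and the mutant pool from ErbB3V943R/V943R;MMTV-Cre mice, in which Cre recombination activates the point substitution V943R in the endogenous gene of the ERBB3 receptor. Both strains were C57BL/6N at 6 weeks of age, and both carried MMTV-Cre, a transgene that drives Cre in the mammary epithelium, so the controls shared the transgene. Thoracic and abdominal glands of 3 mice were pooled for each genotype, luminal epithelial cells were sorted, and each pool was run as 2 single-cell libraries that read the 3′ ends of mRNAs. The libraries are called WT A, WT B, mutant A and mutant B here, letters that only name them.

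Each ribosome carries a single copy of nearly all of these proteins, so their genes are usually expressed in concert, and together they make up a large part of the mRNA of a growing cell. Their mRNAs begin with a run of pyrimidines, the terminal oligopyrimidine tract, through which mTOR signaling, a pathway below the ERBB receptors, controls their translation. Their coding genes have left many processed pseudogenes in the mouse genome, and short 3′ reads from a member can therefore match several places.

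The libraries held 6849 to 9627 cells and 30019745 to 38009351 unique molecular identifiers (UMIs, each a captured mRNA molecule), of which 2633057 to 3044800 belonged to members. Median depth was 3154 UMIs per cell in WT A, 3677 in WT B, 3662 in mutant A and 4027 in mutant B. Erbb3 itself, in counts per 1000000 UMIs (CPM), stood at 60.9 in WT A, 63.3 in WT B, 29.8 in mutant A and 30.8 in mutant B. The deposited classes carried their markers: the 5 luminal progenitor genes summed to 3991 to 4268 CPM in luminal progenitor cells (LP) of WT and 70.1 to 73.4 CPM in mature luminal cells (ML) of WT, while the 6 mature luminal genes stood at 985 to 1033 and 8321 to 8594 CPM. Luminal intermediate cells (LI) lay between them on both lists. Of 31923 distinct cell barcodes, 511 occurred in more than 1 library, with 71 to 111 shared by any pair of libraries.

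Members differed in level over a very wide range. Rps19 stood at 8310 CPM over all cells, while Rpl3l, a paralogue known from striated muscle, was lowest with 0.118 CPM. The median member had 145 CPM, and 28 members were under 100 CPM. Since each captured mRNA is counted at its 3′ end, these levels need no correction for length, but they depend on how many reads could be assigned to 1 gene. The median member had only 39.8% of the last 300 bases of its annotated transcripts in sequence found in no other gene (in windows of 31 bases), against 100% for the median of 9613 other genes with 1000 UMIs or more. For 60 members that share was under 50%.

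**Figure D1:**
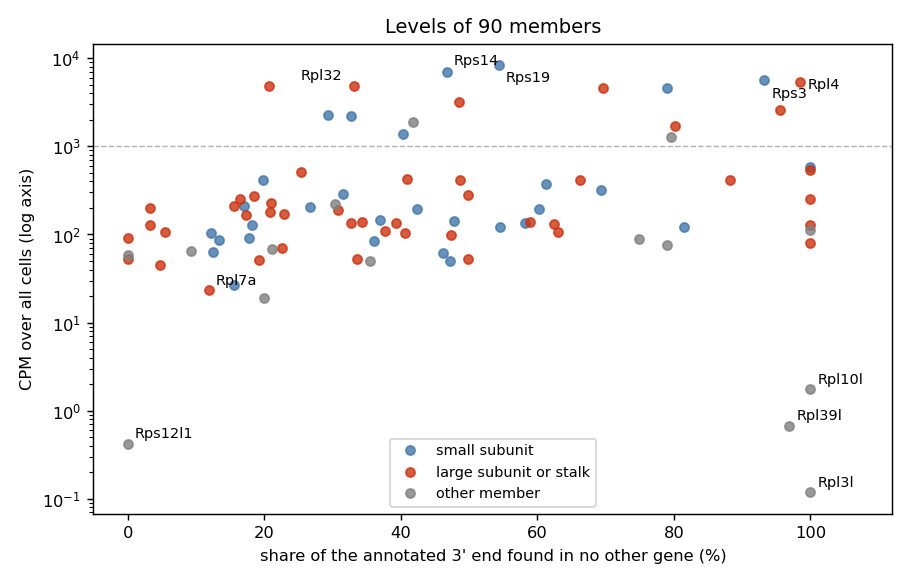
Level of 90 of the 92 members in CPM over all cells (log axis) against the share of its annotated 3′ end that occurs in no other gene (percent). The 16 points above the dashed line at 1000 CPM stand well over the rest, and the 4 points under 2 CPM are Rpl10l, Rpl39l, Rps12l1 and Rpl3l.

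The 17 members of 1000 CPM or more held 84.7% of all member UMIs, and the first 6 alone held 48.0%. Among these were Rps19, Rps14 and Rps3 of the small subunit, and Rpl4 and Rpl32 of the large subunit. Rps19 (ENSMUSG00000040952, chr7:24884371-24889806, plus strand), whose human counterpart is mutated in Diamond-Blackfan anemia, is 54.4% unique and stood at 8378 CPM in WT A, 7678 in WT B, 8866 in mutant A and 8465 in mutant B. Rpl4 (ENSMUSG00000032399, chr9:64173375-64178666, plus strand), which lines the tunnel through which the new peptide leaves, is 98.5% unique and stood at 5423, 5429, 5203 and 5322 CPM in the same order. At the other end of the canonical members, Rpl7a, a large subunit protein, had 23.3 CPM and a 3′ end 11.9% unique. Over the 92 members Spearman's rho between level and uniqueness was 0.30, as a description across genes that share pseudogene families. Levels of different members were for this reason not read as amounts of their mRNAs.

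Members took 8.28% of all UMIs in WT A, 8.01% in WT B, 8.77% in mutant A and 8.35% in mutant B. By class, their share in WT was 8.92% in LP, 9.12% in LI and 7.90% in ML. Among the 13 deposited clusters of WT it was highest in cluster 3, which is LI, with 9.12%, and in cluster 1, the LP cells outside the cycle, with 9.05%. It was lowest in cluster 12, which has fibroblast and endothelial markers and held 19 and 24 cells in the WT libraries, with 6.11%, and in cluster 9, the shallowest ML cluster, with 6.91%. The remaining ML clusters lay between 7.79% and 8.32%. Within the cells of a library the share spread more than between clusters, from 5.34% at the 5th to 10.7% at the 95th percentile of the cells of WT B. The WT libraries differed from each other by 0.047 on the log2 scale and the mutant libraries by 0.070, and in both genotypes library A had the higher share.

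**Figure D2:**
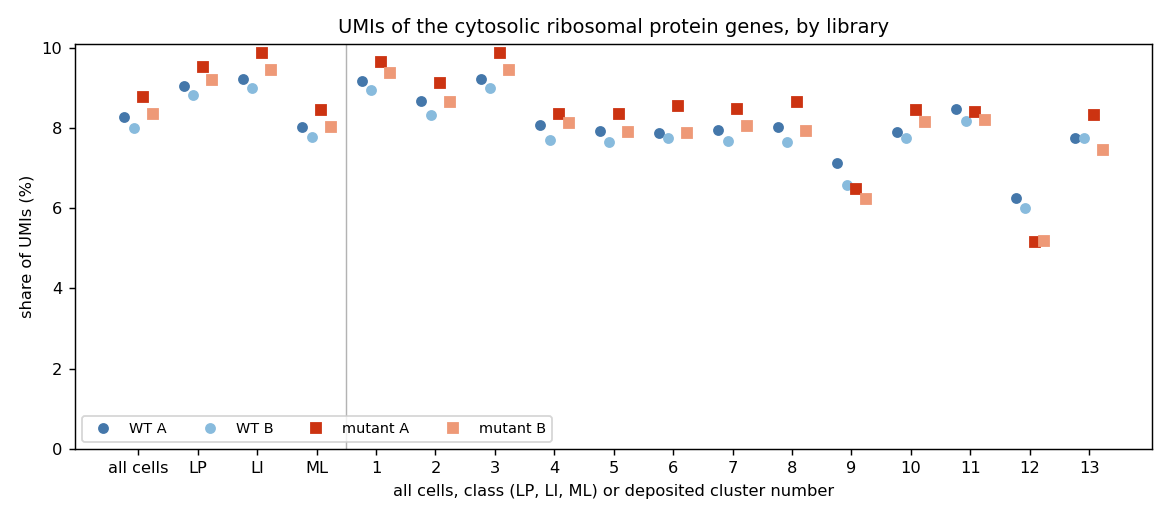
Share of all UMIs that belongs to the 92 members (percent) in all cells, in LP, LI and ML and in the 13 deposited clusters, with 1 point per library. The mutant libraries (squares) lie above both WT libraries (circles) in 6 clusters, below both in clusters 9 and 12, and overlap with them in the other 5.

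Does the V943R substitution change how much of the mRNA encodes ribosomal proteins? In all cells the share was 8.14% in the WT pool and 8.55% in the mutant pool, a log2 ratio of 0.072 (95% interval 0.070 to 0.074), and both mutant libraries lay above both WT libraries. This ratio is about as large as the distance between the mutant libraries, and the 4 pairs of a mutant with a WT library gave 0.013 to 0.13. With TMM factors it was 0.039, and without mutant A 0.038. With 1 pool per genotype no test between genotypes was possible, and the intervals cover counting error only. In LP the share went from 8.92% to 9.36% and in LI from 9.12% to 9.67%, with both mutant libraries above both WT libraries. The LP ratio of 0.068 was 0.038 with TMM factors and 0.045 without mutant A, and the LI ratio of 0.084 was 0.053 without mutant A. In ML it was 7.90% and 8.22%, and the libraries overlapped. The ML ratio was 0.058, and 0.021 both as a mean over cells and without mutant A. By cluster, both mutant libraries lay above both WT libraries in 6 of 13, a count that was 3 with TMM factors. It was 10 without WT A or without mutant B, but leaving out a library can only keep or raise this count. The large subunit and stalk genes gave a log2 ratio of 0.10 with no overlap of the libraries. The small subunit genes gave 0.047 and the libraries overlapped.

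The ratio of mutant over WT was larger in the weakly detected members. A gene was called higher or lower here when its fold was at least 1.1, the genotype with more held at least 200 UMIs, and both mutant libraries lay beyond both WT libraries. Over all cells this called 20.2% of 12512 genes higher and 10.9% lower in the mutant. Of the 88 members tested, 54 were called higher and 1 lower, with a median log2 ratio of 0.26 against 0.013 over all genes tested. The small subunit gave 20 of 31 called higher, and the large subunit with the stalk 30 of 46. Of the 17 members of 1000 CPM or more, however, 1 was called higher and none lower, and their median was 0.036. Of 82 other genes of 1000 CPM or more, 8 were called higher and 23 lower, with a median of -0.037. The 17 members summed to a log2 ratio of 0.037 and their libraries overlapped, whereas the 75 members under 1000 CPM summed to 0.27.

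The abundant members changed little in either direction, with log2 ratios between -0.044 and 0.154. The highest was that of Rpl37rt, which was not called. Rps3, which binds mRNA at its entry to the ribosome, had a log2 ratio of -0.032. Rps14 had 0.010, Rps19 0.11, Rpl4 -0.044 and Rpl32 0.11, and none of these 5 was called. The 1 abundant member called higher was Rpl13a, which was named after its value was seen, with 3014 CPM in WT A, 3077 in WT B, 3498 in mutant A and 3222 in mutant B. Its mutant libraries lay farther from each other than the lower of them lay from WT B.

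The largest folds among called members were at moderate or low level. Rpl29 (ENSMUSG00000048758, chr9:106429454-106431568, plus strand) stood at 61.2 CPM in WT A, 58.3 in WT B, 86.6 in mutant A and 81.4 in mutant B, a log2 ratio of 0.49 (0.43 to 0.55). Both mutant libraries were high, with a clear gap to WT. Rps27rt, a retrocopy of Rps27, gave 0.47, Rpl7 0.44 and Rpl3, which reaches into the peptidyl transferase center, 0.43. Rpl29, Rps27rt, Rpl7 and Rpl3 were called higher in LP, LI and ML alike, with log2 ratios of 0.40 to 0.60. Of 87 members tested in all 3 classes, 43 (49.4%) were called higher in each, against 5.74% of 5300 genes. The 1 member called lower was Rps4l (ENSMUSG00000063171, chr6:148354656-148355598, plus strand), a retrocopy of Rps4x. Its levels were 81.3 and 82.7 CPM in WT and 66.5 and 70.9 CPM in the mutant, a ratio of -0.25 (-0.31 to -0.20), and it was lower in LP (-0.36), LI (-0.29) and ML (-0.22) as well.

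**Figure D3:**
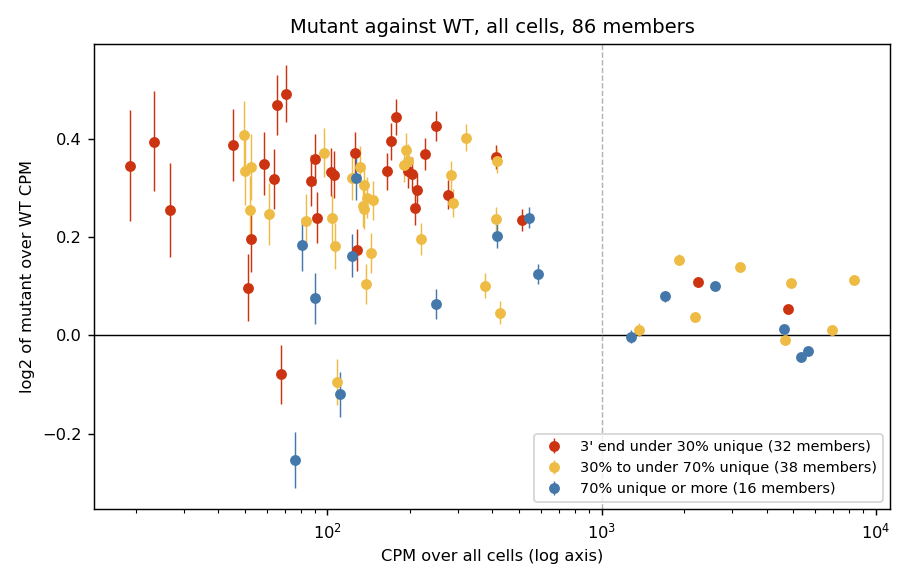
Log2 of the mutant over the WT level in all cells for 86 of the 88 members with 1000 UMIs or more, against their CPM (log axis), colored by the uniqueness of the 3′ end. Bars are 95% counting intervals. The 16 members right of the dashed line at 1000 CPM lie between -0.044 and 0.154, while most of the weakly detected members, in particular those under 30% unique, lie near 0.3.

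The call followed the uniqueness of the 3′ end as well as the level. Of the 32 members under 30% unique, 26 were called higher and the median log2 ratio was 0.33. Of the 39 members between 30% and 70% unique, 25 were called higher and the median was 0.26. Of the 17 members at 70% or more, 3 were called higher and 1 lower, the median was 0.075, and the summed ratio of all 20 such members was 0.0046. Among other genes with 1000 UMIs or more, 214 of 647 under 30% unique were called higher, and 1011 of 8016 at 70% or more. Sequences that are not translated into ribosomal proteins moved with the weakly detected members. Of the 276 ribosomal protein pseudogenes with -ps in the symbol, 175 could be tested, 174 of these had a ratio above 0, and 131 were called higher, with a median of 0.36. Any pseudogene under another name counts among the other genes here. Other genes under 30% unique had a median of 0.069 and those of 70% or more -0.0054. Among the 16 pseudogenes with 1000 UMIs or more whose 3′ ends are at least 70% unique, 12 were called higher with a median of 0.42, so for pseudogenes the ratio did not decline with uniqueness. Libraries of 1 genotype differed too. From the least to the most unique of the 3 groups of members, the median log2 ratio of WT A over WT B was 0.102, 0.115 and 0.017. That of mutant A over mutant B was 0.20, 0.145 and 0.017. Among the 88 members, 69 were higher in WT A than in WT B and 76 higher in mutant A than in mutant B. The part of read assignment in the result was not tested.

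Among related genes the uniqueness of the 3′ end went with the call in part. Fau, whose product is a ribosomal protein fused to a ubiquitin-like protein, has a 3′ end 22.6% unique and gave a ratio of 0.37, called higher. Rack1, a scaffold of the small subunit with a 3′ end 99.6% unique, stood at 1898 and 1954 CPM in WT and 1842 and 1911 CPM in the mutant, a ratio of -0.038. Of 16 translation factors and related genes, 8 were called higher and none lower, namely 3 of the 3 under 70% unique (Naca, 0.40, Eef1a1, 0.24, and Eef1b2, 0.16) and 5 of the 13 at 70% or more (among them Eef1g, 0.40, and Pabpc1, 0.30). Of 26 ribosome biogenesis genes, 1 was called higher (Fbl, the methyltransferase fibrillarin, 0.51) and 1 lower (Nop2, -0.17), with a median of -0.029. Of 77 mitochondrial ribosomal protein genes tested, 1 was called higher (Mrpl23, 0.22) and 2 lower (Mrpl41, -0.15, and Mrpl47, -0.17), and 60 had a ratio below 0. Their summed share was 0.964% in WT A, 0.973% in WT B, 0.940% in mutant A and 0.947% in mutant B. Of these genes Mrpl23 has a 3′ end 0.74% unique. Mrpl53, Mrps25 and Mrps34, at 0% unique, gave 0.034, -0.073 and -0.11 and were not called. Of 20 genes of mTOR and Myc control tested, 4 were called higher (Myc, Tsc1, Sesn2 and Sesn3) and none lower, a share near the 20.2% of all genes called higher. The genes named from these 4 lists were chosen after their values were seen.

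The classes gave like counts of called members. In LP 55 members were called higher and 1 lower of 88 tested, against 14.7% and 10.2% of all genes. In LI it was 55 and 2 of 87, against 16.6% and 15.3%. In ML it was 49 and 2 of 88, against 18.0% and 14.7%. The abundant members again stood apart, with 0 of 17 called higher in LP, 2 in LI and 1 in ML. Whether classes differed in the size of the change was not tested.

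In clusters 9 and 11 of ML the summed share was not higher in the mutant. Cluster 11 held 1454 cells in WT A, 1409 in WT B, 321 in mutant A and 349 in mutant B. Its member share was 8.48%, 8.18%, 8.41% and 8.21% in that order, a log2 ratio of -0.0043 (-0.011 to 0.0028). Its abundant members were below WT in both mutant libraries, with 7.23% and 7.02% against 6.99% and 6.93%. Rpl4 in cluster 11 stood at 5593 CPM in WT A, 5652 in WT B, 5179 in mutant A and 5263 in mutant B (-0.106). This fold was under 1.1, and no abundant member was called in either direction in cluster 11. Among all 86 members tested, 35 were called higher and 4 lower, against 19.2% and 13.8% of all genes, and those lower were Rps4l, Rpl15, Rpl27a and Rps19bp1. The count of those lower was 9 without WT B and 11 without mutant A, with fewer libraries for the rule of no overlap to meet. With TMM factors cluster 11 gave 20 higher and 17 lower and a summed ratio of -0.10. The shares of all genes above are for total UMIs. No such share is given with TMM factors, so these counts have no background and are not read as a result about the members.

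Cluster 9 was the ML cluster in which both mutant libraries lay below both WT libraries. It held 265 and 176 WT cells and 251 and 206 mutant cells, with a median of 1515 and 1558 UMIs per WT cell and of 1291 and 1422 per mutant cell. Members took 7.14% and 6.58% of its UMIs in WT and 6.49% and 6.23% in the mutant, a log2 ratio of -0.12 (-0.14 to -0.099). The abundant members gave a ratio of -0.17, and 7 of 17 were called lower and none higher. By count the members were near the background, since 7 of 28 members tested were called lower and 3 higher, among them Rps16 and Rplp2, against 23.6% and 15.2% of the 487 genes that could be tested there. Rpl4 stood at 3816 and 3272 CPM in WT and at 2875 and 2694 CPM in the mutant, the largest of the 7 ratios (-0.36, interval -0.45 to -0.28). Rps9, which bears on the accuracy of decoding, gave -0.29 and Rpl8, a neighbor of the peptidyl transferase center, -0.27. For each of these 3 genes the mutant libraries lay below both WT libraries, whereas over all cells Rps9 and Rpl8 gave 0.013 and -0.011. The median mitochondrial share of UMIs in cluster 9 was 0.45% in WT A, 0.47% in WT B, 0.44% in mutant A and 0.55% in mutant B. Over all ML cells it was 0.23% to 0.25% in the libraries, and in cluster 8 it was 0.91% to 0.98%. The lower depth of the mutant cells in cluster 9 moved with this result. The part of depth and of the mitochondrial share was not tested.

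**Figure D4:**
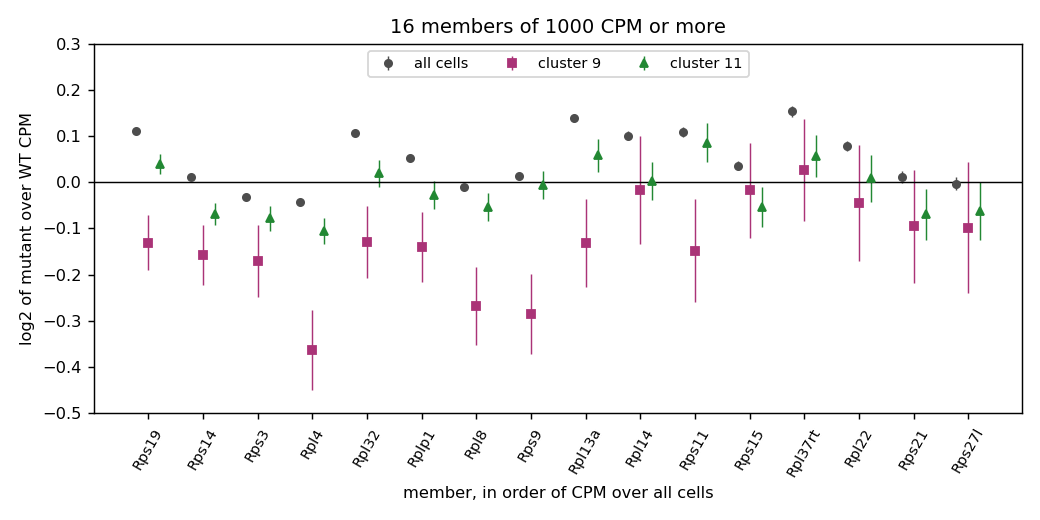
Log2 of the mutant over the WT level of 16 of the 17 members of 1000 CPM or more, in all cells (circles), cluster 9 (squares) and cluster 11 (triangles), with 95% counting intervals. In cluster 9 all but Rpl37rt lie below 0 and the lowest is Rpl4 at -0.36, while in all cells the values lie between -0.044 and 0.154.

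The genotypes were also compared at like depth. When the cells were divided into 5 bins of UMIs per cell, the log2 ratio of mutant over WT was 0.015 in the lowest bin, 0.066 in the second, 0.025 in the third, 0.037 in the fourth and 0.077 in the highest. Both mutant libraries lay above both WT libraries in the second bin, and the libraries overlapped in the other 4. In LP they lay above both in bins 2 to 5, with ratios of 0.082, 0.072, 0.064 and 0.086, and in LI in bin 5, with 0.072, against -0.0011 in bin 4. In ML bins 2 to 5 gave 0.012, 0.010, 0.039 and 0.073, and the libraries overlapped in each. Among ML cells of the lowest bin, which include most of cluster 9, the ratio was -0.15, at 7.58% in WT A, 7.28% in WT B, 6.79% in mutant A and 6.67% in mutant B. Cluster 9 made up 241 of 1126, 162 of 648, 232 of 546 and 197 of 478 of these cells in that order. The mix of clusters in this bin thus differed between genotypes, and its part was not tested. Within cluster 9 alone the lowest bin gave -0.113.

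LP cells held a larger share of member UMIs than ML cells, but the direction depended on the scaling. Over the UMIs of both genotypes members took 9.14% in LP and 8.04% in ML, a log2 ratio of 0.18 ± 0.013 (SD, n = 4 libraries), with 0.170 in WT A, 0.182 in WT B, 0.175 in mutant A and 0.200 in mutant B. The median of all genes tested was 0.18 higher in LP on the same scale, and with TMM factors (a trimmed mean of ratios) that median moved by -0.29 to -0.115 and the member ratio turned to -0.11. The median over members was then -0.113. Over all levels members did not stand out from the typical gene here, and their median log2 ratio was 0.18 against 0.18 for all genes. By level, the medians of other genes with 1000 UMIs or more were 0.20 under 100 CPM and -0.014 from 100 to 1000 CPM. At 1000 CPM or more the median of 82 such genes was -0.46. Members gave 0.21, 0.107 and 0.17 in that order, so members of 100 CPM or more lay above other genes of like level. A gene was called between classes when its fold was at least 1.1, with at least 200 UMIs in the class with more and the same direction in all 4 libraries. Of 88 members, 47 were called higher in LP and 9 higher in ML, against 46.4% and 25.5% of 13216 genes. With TMM factors it was 8 and 41, against 27.3% and 42.7% of all genes. The small subunit genes gave a summed ratio of 0.234 and the large subunit with the stalk 0.158, and the small subunit ratio was the larger in all 4 libraries. Because the classes were made from these same values, all of this is a description.

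Within that common shift some members went far to either side, and these kept their direction with TMM factors. Rpl22l1 (ENSMUSG00000039221, chr3:28805436-28807424, plus strand), a paralogue of Rpl22, stood at 100.9 CPM in LP, 73.9 in LI and 61.1 in ML. Its log2 ratio of LP over ML was 0.71, 0.73, 0.71 and 0.80 in WT A, WT B, mutant A and mutant B (0.72 in all, 0.43 with TMM factors). Rpl22 itself, which binds RNA in the large subunit, stood at 1768 CPM in LP and 1688 in ML, a ratio of 0.067 that turned to -0.23 with TMM factors. Rps12 gave 0.62, Rpl7a 0.61, Rpl36 0.60 and Rps9 0.54, and for Rps9 the levels were 6173 CPM in LP, 5501 in LI and 4246 in ML. With TMM factors these 4 were still higher in LP, at 0.33, 0.31, 0.31 and 0.24.

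On the ML side the order of the classes was reversed. Rps28 (ENSMUSG00000067288, chr17:33819027-33824562, minus strand), a small subunit protein at the mRNA exit, stood at 89.0 CPM in LP, 137 in LI and 144 in ML, a ratio of -0.69, with -0.72, -0.61, -0.74 and -0.74 in the libraries. Rps27l (ENSMUSG00000036781, chr9:66946086-66949516, plus strand), a paralogue of Rps27 known as a p53 target, stood at 895, 1174 and 1367 CPM, a ratio of -0.61. Its parent Rps27 went the other way, with 164 CPM in LP and 140 in ML (0.23), a value that TMM factors move below 0. Rpl36al gave -0.61 with 153, 204 and 234 CPM, while Rpl36a, which encodes nearly the same protein, gave 0.14 (-0.15 with TMM factors). Rpl41, the shortest of the ribosomal proteins, and Rps4l gave -0.33 each.

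**Figure D5:**
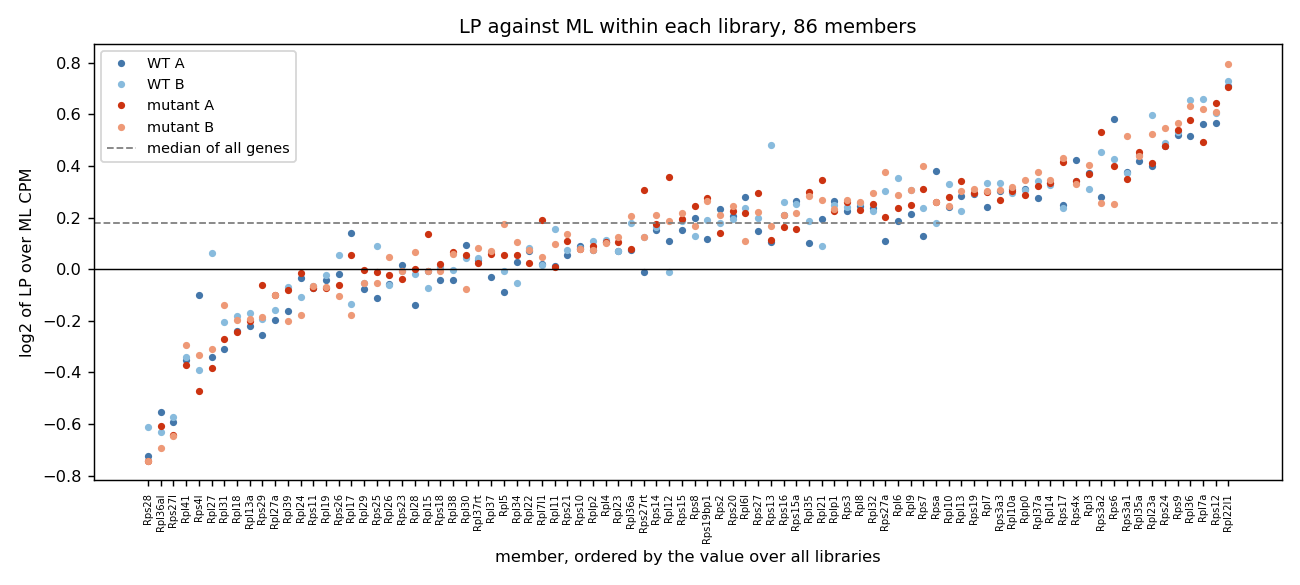
Log2 of the LP over the ML level within each library for 86 of the 88 members with 1000 UMIs or more, in order of the value over all libraries. The dashed line is the median of all genes tested (0.18); 64.0 of the 86 lie above 0 over all libraries, Rpl22l1, Rps12, Rpl7a, Rpl36 and Rps9 stand highest, and Rps28, Rpl36al and Rps27l lie lowest in all 4 libraries, whereas members near 0.2 fall below 0 with TMM factors.

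The start sites of these members are shown because the pyrimidine tract there is the feature by which their translation is controlled. Each line gives 30 bases of GRCm38.p6 (RefSeq), from 10 before the start site to 20 from it on, 5′ to 3′ on the strand of the gene, with the longest run of at least 5 pyrimidines in capitals and the rest in lower case.
Rps12 (chr10:23787190-23787219, minus strand): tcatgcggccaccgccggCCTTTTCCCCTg
Rpl22l1 (chr3:28805498-28805527, plus strand): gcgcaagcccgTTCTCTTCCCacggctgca
Rps27 (chr3:90213629-90213658, minus strand): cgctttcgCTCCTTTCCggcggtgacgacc
Rps27l (chr9:66946076-66946105, plus strand): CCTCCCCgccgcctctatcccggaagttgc
Rpl36al (chr12:69184048-69184077, minus strand): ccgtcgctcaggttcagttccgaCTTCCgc
Rps28 (chr17:33824543-33824572, minus strand): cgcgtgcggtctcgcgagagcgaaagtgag
Rps12, Rpl22l1 and Rps27 hold runs of 11, 10 and 9 pyrimidines in this window, and the run of Rps12 begins only at base 9 from the start. That of Rpl22l1 begins at base 2, and only the run of Rps27 spans the annotated start. The genes shown were picked and do not stand for all members. Rps27l holds 7 that end before the start site (the upstream of its 2 annotated starts) and a shorter run of 5 after it. Rpl36al holds 5 and Rps28 no run of 5. Long runs were not shared by all members called higher in LP, as Rps3 (0.25) holds no run of 5 in its window. Rps19 (0.30) was also called higher in LP, and the longest run over its annotated starts was 7. Rpl4 (0.10, not called) holds 6. The annotated starts need not be those used in these cells.

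Of the 92 members, 67 matched a symbol in the RefSeq start-site table. The motif CTTTC occurred on the gene strand between 25 bases before and 50 after the start in 33 of them (49.3%), against 11.1% of 27025 symbols. On the other strand CTTTC occurred in 13.4% of members and 10.8% of all symbols. Among members with 1000 UMIs or more, the 32 with the motif and the 32 without it had median mutant over WT ratios of 0.26 and 0.25. Their median LP over ML ratios were 0.097 and 0.22. Of the 32 with the motif 11 were called higher in LP and 4 lower, and of the 32 without it 19 and 3. Of all genes tested, 46.4% were called higher in LP and 25.5% lower. Whether members with and without the motif differ was not tested. The motif is a description of these windows.

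LI cells had a summed share of 9.40% of UMIs over both genotypes, above LP and ML. Relative to ML the log2 ratio was 0.225, with 0.201 to 0.239 in the libraries, and relative to LP it was 0.040, with 0.029 to 0.049. With TMM factors these were 0.11 and 0.19. LI cells were also the deepest, with a median of 5620 UMIs in WT and 6850 in the mutant against 2018 and 2067 in LP and 3508 and 4070 in ML, and the order of LI and LP differed between bins of depth. In the fourth bin of UMIs per cell LI stood at 8.63% in WT and 8.62% in the mutant, below LP with 8.85% and 9.26%, and in the highest bin at 9.39% and 9.87%, above LP with 8.98% and 9.53%. When each cell was given the same weight, LI stood below LP (-0.020). Against ML 49 of 88 members were called higher in LI and 6 lower (26.3% and 18.7% of all genes), and against LP 16 higher and 14 lower (22.6% and 46.7%).

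Clusters 2, 5 and 6 carried the cycling markers, with the 6 genes summing to 1684 to 1917, 853 to 941 and 1302 to 1479 CPM over the libraries, against 25.8 to 232 CPM in clusters 1, 3, 4 and 7 to 11. There the summed members and the genes that build ribosomes did not move alike. In cluster 2, the cycling LP cells, members took 8.68% of UMIs against 9.28% in cluster 1, a log2 ratio of -0.097 that was below 0 in 4 of 4 libraries. Of 88 members, 4 were called higher and 26 lower, against 28.6% and 23.6% of all genes. In cluster 5, an ML cluster, the ratio to the other ML cells outside clusters 5 and 6 was -0.022, again below 0 in 4 of 4 libraries, with 15 members called higher and 9 lower (29.9% and 24.9% of all genes). The small subunit genes gave -0.063 there and the large subunit with the stalk 0.023, each in the same direction in 4 of 4 libraries, and 52 of 88 members had a ratio above 0. In cluster 6 it was -0.0084 with 1 of 4 libraries above 0, and 7 members were called higher and 12 lower (32.6% and 19.9%). The summed ribosome biogenesis genes, which include nucleolin (Ncl), were higher in 4 of 4 libraries in each, by 0.25, 0.71 and 0.27, and 10 of 24, 25 of 26 and 12 of 26 of them were called higher. The mitochondrial ribosomal protein genes were higher in 4 of 4 libraries too, by 0.30, 0.39 and 0.32. The translation factors gave -0.155, -0.145 and -0.129. With TMM factors the member ratios were lower still, at -0.21, -0.21 and -0.156, while the biogenesis genes stayed above 0, at 0.135, 0.53 and 0.122, and the mitochondrial ribosomal protein genes at 0.19, 0.21 and 0.175.

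Between LP and ML the biogenesis genes were higher in LP by 0.54 (0.24 with TMM factors) and 21 of 26 were called higher, against 46.4% of all genes, among them Ncl with 1088 CPM in LP and 559 in ML. The mitochondrial ribosomal protein genes gave 0.0036, between -0.010 and 0.017 in the libraries, and -0.29 with TMM factors.

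Among paralogues and retrocopies, Rpl37rt stood at 1910 CPM with a 3′ end 41.8% unique, and Rps27l at 1283 CPM with 79.6%. Rpl36al, Rpl7l1, Rps4l, Rpl22l1, Rps27rt, Rpl6l, Rps3a3 and Rps3a2 lay between 19.1 and 220 CPM. Rpl7l1, which is known from ribosome assembly, had a mutant over WT ratio of 0.075, Rpl22l1 -0.079 and Rps27l -0.0029, and their libraries overlapped or their folds were under 1.1. Rps3a3 and Rps3a2, copies of Rps3a1, gave 0.41 and 0.34, and Rpl36al 0.20. Rps19bp1, a SIRT1 regulator, gave -0.120. The tissue-restricted paralogues were hardly detected, with 16 UMIs of Rpl3l, 92 of Rpl39l and 238 of Rpl10l in all cells, and Rps12l1 had 57. These 4 were below 1000 UMIs, so no ratio is given for them singly, but they are part of the sums.

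The 5 genes outside the list that followed the member share most closely over the 13 clusters of WT were Smim19 (Pearson's r = 0.94), 2010107G23Rik (0.93), Idh3b (0.93), Gm9625 (0.93) and Eif3k (0.93), out of 5027 genes. These values describe points that share libraries and depth and are given with no test. Each cluster had the same weight, also cluster 12 with 43 WT cells. Smim19 and 2010107G23Rik had 4940 and 2525 UMIs in WT, so their levels in so small a cluster rest on few UMIs. Eif3k, a subunit of the initiation factor that binds the small subunit, stood at 855 CPM in LP and 781 in ML.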

How the data were processed

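The authors deposited 1 table with a signal for each gene and cell, in which the UMIs of a cell were multiplied by 1 factor, together with the library, genotype, cluster and class of each cell. The submitters' processing notes name CASAVA 1.8, bcl2fastq 2.20, GSNAP and GRCm38, and how reads with several matches were counted is not given in the sources used here. The lowest value above 0 in a cell was taken as 1 UMI and all its values were scaled to it. All values above 0 then lay within 0.00989 of a whole number and were summed as UMIs by cluster and library. No cell was removed and doublets were not called. Library names carry no replicate number, so A and B are arbitrary, and libraries of a pool are technical. The libraries of a genotype differed beyond counting error (chi-square per gene 4.28 in WT and 5.07 in the mutant, 69.7 and 121 over members). There were 0 columns of per-sample values left unused.

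CPM are UMIs per 1000000 UMIs of the same cells. Intervals are 95% exact conditional binomial for ratios and cover counting error only. With 1 pool of mice per genotype no test was made. Uniqueness was the share of 31-base windows in the last 300 bases of the annotated transcripts of GENCODE M21 found in no other annotated gene. Matches were exact and on either strand, so an overlapping gene at the same place also counted. Uniqueness was added after seeing the data, as were the division at 1000 CPM and the one at 70% unique. Named were the 6 highest members, the 5 largest folds each way per comparison, the listed paralogues, members of fewest UMIs, and the 5 most alike genes. Some members and related genes are not reported here by name and are not drawn, but stay in all sums and counts. The members and lists were chosen with earlier results of these data known. Alternatives were TMM factors, other denominators, minimums and folds, means over cells, leaving out cells of low depth, clusters or 1 library, and other sets of members. The scripts were tested on simulated data. Python 3.11.15, numpy 2.4.6, pandas 2.3.3, scipy 1.17.1 and matplotlib 3.10.9 were used.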

Additional observations from a re-analysis of the deposited data

Results flagged for a closer look

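In cluster 9 members took a smaller share of UMIs in both mutant libraries than in both WT libraries, with a log2 ratio of -0.118, and in cluster 12, which held 76 cells, the ratio was -0.239. In 6 other clusters both mutant libraries lay above both WT libraries. The difference between clusters was not tested.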

How the results depend on the processing

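Members under 1000 CPM gave a mutant over WT ratio of 0.27 in all cells and members at least 70% unique 0.0046. With TMM factors both mutant libraries lay above WT in 3 clusters, cluster 11 gave -0.10 and cluster 12 -0.41, LP against ML turned to -0.11, LI gave 0.19 against LP and 0.11 against ML, and clusters 2, 5 and 6 gave -0.21, -0.21 and -0.16. Without members and mitochondrial genes in the denominator LP and LI against ML gave 0.20 and 0.25, and with canonical members LP against ML gave 0.20. As means over cells LP against ML gave 0.22, LI against LP -0.020, LI against ML 0.20 and cluster 5 -0.0048.

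At a fold of 1.2 the members called lower were 0 in all cells, 1 in LI and 0 in ML, and cluster 11 gave 21 higher and 1 lower. At a fold of 1.5 calls higher and lower were 0 and 0 in all cells, 1 and 0 in LP, 1 and 0 in LI, 0 and 0 in ML and 0 and 0 in cluster 11. With no minimum fold 6, 3, 4, 6 and 10 were lower in the same order. With at least 1000 UMIs LP gave 36 and 0, LI 36 and 0, and cluster 11 20 and 2. TMM factors gave 2 lower in all cells, and 20 higher and 17 lower in cluster 11, with no share of all genes at that scaling beside them. Members of 1000 CPM or more gave 1 and 0 in all cells, and the other denominator 1 lower in ML. LP against ML gave 28 and 5 at a fold of 1.2, 4 and 3 at 1.5, 15 lower with no minimum, 8 and 41 with TMM factors, and 10 and 2 for members of 1000 CPM or more. Leaving out 1 library gave 6 to 10 clusters above WT, 1 to 2 members lower in all cells, 1 to 3 in LP (3 without WT B) and 4 to 11 in cluster 11. Leaving out a library eases the rule of no overlap, so the count of clusters could not fall this way. The other 123 values of the comparisons under an alternative, and 84 without 1 library, moved by less than 1 SD between libraries or, for counts, within 1.5 times. Some of these still moved far in proportion, and the all-cells ratio of 0.072 was 0.039 with TMM factors and 0.038 to 0.108 without 1 library. The causes were not tested. Depth limited cluster 9, where 28 members could be tested. No paired analysis was possible because the library names carry no replicate number and no test was made.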
